A study of Mus musculus with 6 samples.

Results

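The genes described here are 58 mouse genes of interferon sensing and response, taken by name from the 46603 gene identifiers counted in each library. They comprise 7 receptor and receptor-bound kinase genes, 8 genes of signal transducers and interferon regulatory factors, and 7 genes of nucleic acid sensors and their adaptors. The others are 7 genes of the ISG15, ADP-ribosylation and TRIM group, 20 antiviral effectors, 4 membrane-bound restriction factors and 5 interferon-gamma-inducible GTPases. RNA was sequenced from mouse embryonic fibroblasts (MEFs), connective tissue cells grown from embryos, of strain BALB/c with a labelled age of 10.5 day old embryos. Wild-type cells (WT, 3 libraries) were compared with cells lacking beta-actin (KO, 3 libraries), a loss that was not limited to a cell type or a time. Both genotypes had spent 6 days in adipocyte differentiation medium, which is growth medium with insulin, dexamethasone, 3-isobutyl-1-methylxanthine and ascorbic acid. Dexamethasone is a glucocorticoid, and all 6 libraries share it. No library from before induction and none with added interferon or virus was analysed here. The labels do not say whether the 3 libraries of a genotype came from separate lines or cultures, so the p-values measure the spread between these samples, which may be technical.

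Interferons are secreted proteins that warn cells of infection. Type I interferons bind IFNAR1 and IFNAR2, which carry the kinases TYK2 and JAK1, and interferon-gamma binds IFNGR1 and IFNGR2, which carry JAK1 and JAK2. The type I receptor activates a complex with STAT2 and IRF9 that binds the interferon-stimulated response element (ISRE) in promoters, while the interferon-gamma receptor acts through the gamma-activated site (GAS). Cytosolic sensors of viral RNA (RIG-I, MDA5) and of DNA (cGAS) signal through MAVS and STING to induce interferon itself. Fibroblasts are a classical source of interferon-beta, and uninfected fibroblasts keep a low level of many interferon-stimulated genes through weak tonic signalling.

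The libraries held 26955708 to 38619711 counted reads, and the 58 genes took 43810 to 66869 of them. Levels are given as CPM, counts per 1e6 in TMM-scaled libraries. Actb, the targeted gene, stood at 1901, 1904 and 1820 CPM in the WT libraries and at 10.4, 58.9 and 50.3 CPM in the KO libraries (log2 fold change -5.55 ± 0.80 SE, edgeR quasi-likelihood adjusted p = 0.00088). KO replicate 1 stood apart from the other two KO libraries. Its counts differed from theirs by a chi-square of 173 and 171 per degree of freedom, against 26.3 between KO replicates 2 and 3 and 17.2 to 31.9 between WT libraries. Mitochondrial genes took 3.57% to 3.63% of reads in WT, against 3.76% in KO replicate 1, 5.41% in replicate 2 and 4.43% in replicate 3. Of 12 fibroblast markers, all tested, 8 were higher in KO and 0 lower, where 13.8% of all tested genes were higher. The summed level of all 12 was 3058 to 3859 CPM in WT and 7728 to 10621 CPM in KO. The fibroblast markers Thy1 and Col1a2 were nearly absent from WT, with 1 count and 28 counts in all over its 3 libraries. Of 14 macrophage markers, Tyrobp and C1qb were at 0 in all 6 libraries and Ptprc had 1 count. Only 4 of the 14 were tested, of which Fcer1g was lower in KO. The sum of the 14 was 19.6 to 37.7 CPM in WT and 21.6 to 31.4 CPM in KO. Of 10 dendritic cell markers, Bst2 and Irf8 are themselves among the 58 genes. The other 8 summed to 9.37 to 11.7 CPM in WT and 11.2 to 15.2 CPM in KO, with Cd209a at 0 and Flt3 called lower. All 10, Bst2 and Irf8 included, summed to 128 to 154 CPM in WT and 51.4 to 98.8 CPM in KO. For 10 lymphocyte markers they were 0.283 to 0.849 and 0.119 to 0.272 CPM, with Ncr1, Gzma and Ms4a1 at 0. For 7 epithelial markers they were 5.12 to 10.7 and 30.3 to 50.6 CPM, and for 8 endothelial markers 3.43 to 4.69 and 2.20 to 3.76 CPM. Among the epithelial markers Krt18 and Krt19 were higher and Epcam lower, and among the endothelial ones Vwf was lower. Adipocyte markers (7 genes, Lep at 0, Pparg higher and Cebpa lower) summed to 26.1 to 32.1 CPM in WT, and to 139.6 CPM in KO replicate 1 against 36.9 and 39.9 CPM in KO replicates 2 and 3. Fewer cells of a type and less RNA per cell cannot be told apart in bulk samples, and the part of cell composition or of the mitochondrial share in the results below was not tested.

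The 5 GTPase genes and 6 of 7 genes of the ISG15 group were lower in the KO cells. So were 6 of 15 tested antiviral effectors, 3 of 7 sensor and adaptor genes and 2 of 4 membrane factors. Among the transducers and regulatory factors 3 of 8 were lower, and among the receptors and kinases 2 of 7. Of the 58 genes, 53 had enough counts to be tested. At an adjusted p below 0.05, 27 of them (50.9%) were lower in KO, against 14.5% of the 15009 genes tested overall. Only Isg20, an antiviral exonuclease gene, was higher (1.89% of the 53, against 13.8% of all tested genes), and 25 did not pass the test. The remaining Ifit3b, Mx1, Oas2, Oasl1 and Rsad2 had too few counts to test. The log2 fold change was below 0 for 43 tested members and above 0 for 10, with a median of -0.69, where the median of all tested genes was 0.01. All 3 KO values lay below all 3 WT values for 34 members and above them for 3. Of all tested genes, 49.6% showed no overlap, 25.8% with KO below and 23.8% with KO above. The 27 lower genes ranged from -4.10 to -0.42 on the log2 scale with a median of -1.93, and 22 of them were at least 2-fold lower. The 25 that did not pass ranged from -1.24 to 0.62 with a median of -0.13.

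**Figure D1:**
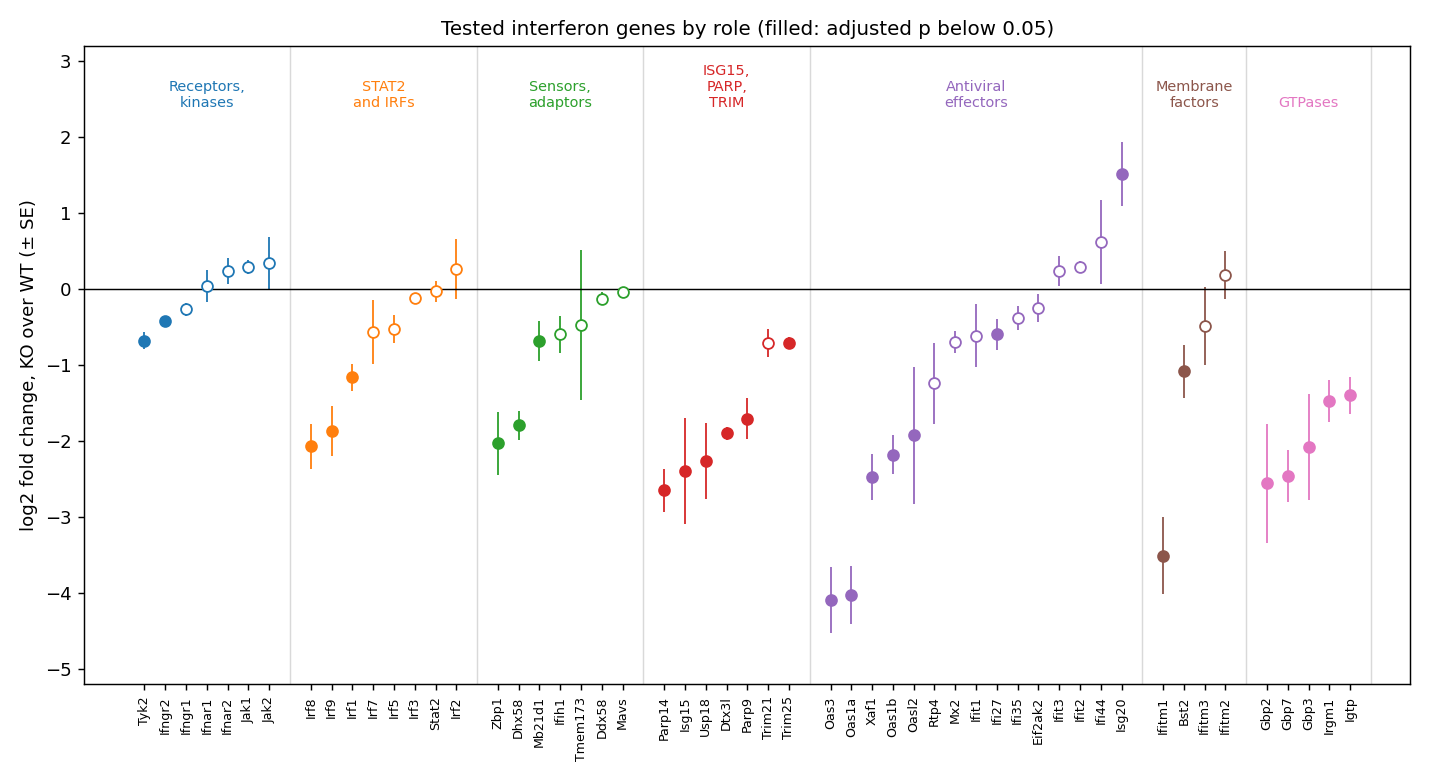
Log2 fold change of KO over WT (vertical axis, bars are the SE, n = 3 per genotype) for the 53 tested genes, grouped and coloured by role and ordered within each role. Filled circles passed the test at an adjusted p below 0.05, and the 5 GTPase genes and 6 of 7 genes of the ISG15 group are filled and below 0, while most receptor genes are open and near 0.

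Promoter sequences are shown because interferon acts through ISRE and GAS elements, and the letters of these occur in some of the genes. Windows of 250 bases before to 50 bases after the start site came from RefSeq (build GRCm38.p6). Of the 58 genes 46 had one, among them 20 of the 27 lower genes. Among genes with a window, such letters were about as frequent in the lower genes as in those not called, which was not tested. The ISRE core was searched as GAAA, any pair of bases and GAAA again, and the GAS as TTCNNNGAA, each on both strands. The ISRE core was present in 21 of 46 members (45.7%), against 3.99% of all 27025 genes with a window. It was present in 9 of 20 lower members (45.0%) and 10 of 22 that were not called (45.5%). The GAS letters were present in 14 of 46 members (30.4%), against 9.55% of all genes, and in 6 of 20 lower and 7 of 22 not called members. By role, the ISRE core was found in 5 of 5 GTPase genes, 3 of 4 membrane factors, 7 of 14 antiviral effectors and 0 of 7 receptor and kinase genes. In Ifitm3 and Bst2 an ISRE core and a GAS match overlap. A match is a description of letters and not evidence of binding.

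The 150 bases before the start site follow, 5′ to 3′ on the gene's strand, for 5 lower genes with the ISRE core, 2 lower genes without it and Ifit1, which has it and did not pass the test. Capitals mark ISRE core letters on either strand, and in Irf1 the GAS letters. Oas1a also has a GAS match, left in lower case. Ifit1 was added after its values were seen.
Isg15: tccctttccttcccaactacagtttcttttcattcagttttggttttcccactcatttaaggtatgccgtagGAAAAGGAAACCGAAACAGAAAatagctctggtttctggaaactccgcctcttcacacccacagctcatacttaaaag
Oas1a: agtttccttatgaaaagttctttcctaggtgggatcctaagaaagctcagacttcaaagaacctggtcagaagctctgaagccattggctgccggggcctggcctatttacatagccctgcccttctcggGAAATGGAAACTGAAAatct
Gbp2: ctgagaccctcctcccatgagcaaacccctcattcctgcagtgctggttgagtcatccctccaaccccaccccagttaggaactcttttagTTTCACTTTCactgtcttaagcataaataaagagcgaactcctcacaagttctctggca
Gbp3: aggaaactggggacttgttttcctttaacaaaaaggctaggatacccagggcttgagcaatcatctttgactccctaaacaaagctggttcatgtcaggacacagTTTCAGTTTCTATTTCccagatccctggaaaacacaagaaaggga
Irgm1: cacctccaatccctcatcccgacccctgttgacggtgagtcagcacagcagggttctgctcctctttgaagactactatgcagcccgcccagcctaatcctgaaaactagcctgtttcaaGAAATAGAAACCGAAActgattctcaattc
Irf1: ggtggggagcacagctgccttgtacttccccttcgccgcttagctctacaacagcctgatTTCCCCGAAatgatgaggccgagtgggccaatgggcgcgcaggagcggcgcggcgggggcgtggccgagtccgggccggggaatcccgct
Ifitm1: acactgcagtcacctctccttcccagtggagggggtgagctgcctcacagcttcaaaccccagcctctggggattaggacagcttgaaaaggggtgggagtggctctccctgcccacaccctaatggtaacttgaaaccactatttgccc
Ifit1: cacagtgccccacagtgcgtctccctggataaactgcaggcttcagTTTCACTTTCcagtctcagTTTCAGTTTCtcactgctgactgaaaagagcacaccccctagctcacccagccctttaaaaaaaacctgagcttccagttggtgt

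In the Isg15 promoter (chr4:156200819-156200968, minus strand) 3 ISRE cores overlap, at positions -78, -72 and -66 from the start site. Oas1a (chr5:120907526-120907675, minus strand) has a pair at -20 and -14, Gbp3 (chr3:142559894-142560043, plus strand) at -45 and -39, and Irgm1 (chr11:48871421-48871570, minus strand) at -30 and -24. Gbp2 (chr3:142620513-142620662, plus strand) has a core at -59. In the Isg15, Oas1a, Gbp3 and Irgm1 windows neighbouring cores overlap and share a GAAA block (TTTC on the other strand). The Irf1 window (chr11:53769864-53770013, plus strand) has a GAS match, TTCCCCGAA, at -90 and no ISRE core. The Ifitm1 window (chr7:140967926-140968075, plus strand) has neither. Its start site, 140968076, lies inside the annotated gene (140967221 to 140969825), so the bases before the annotated gene start were not searched. The Ifit1 window (chr19:34640739-34640888, plus strand) has ISRE cores at -104 and -85.

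The ligands themselves were near absence in both genotypes. Of 21 interferon genes, 15 had 0 counts in all 6 libraries, and all of them together had 8 counts in WT and 29 in KO. Ifne, an interferon gene best known from reproductive tract epithelium, held 31 of these counts, with 0, 3 and 3 in WT and 6, 12 and 7 in KO. None could be tested. A limit of 3 counts corresponds to 0.0816 to 0.113 CPM in these libraries.

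Of the 7 receptor and kinase genes, 2 were lower (28.6%, against 14.5% of all tested genes) and 5 were not called. Their median log2 fold change was 0.04. Tyk2, the kinase on IFNAR1, fell from 18.8, 22.1 and 19.99 CPM in WT to 14.2, 12.1 and 11.7 CPM in KO (log2 -0.68 ± 0.11, adjusted p = 0.0142). Ifngr2, the signal-transducing chain of the interferon-gamma receptor, fell from 69.3, 70.6 and 71.0 to 48.9, 51.7 and 57.2 CPM (log2 -0.42 ± 0.07, adjusted p = 0.0239). Neither gene's genotypes overlap, and both differences are less than 2-fold. The Ifngr2 call was lost without WT replicate 1, 2 or 3 or KO replicate 2 (adjusted p up to 0.101), and the Tyk2 call without WT replicate 2 or KO replicate 3 (adjusted p up to 0.0736). Jak1, the kinase shared by both receptor types, stood at 227, 248 and 253 CPM in WT and 325, 290 and 270 CPM in KO (log2 0.28 ± 0.09, adjusted p = 0.115). Its KO values lie above all WT values without passing the test. Ifnar1 (log2 0.04, adjusted p = 0.899), Ifnar2 (0.24, 0.304), Ifngr1 (-0.27, 0.117) and Jak2 (0.34, 0.357) were not called either. The KO values of Ifngr1 all lie below its WT values.

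Among the transcription factors, 3 of 8 were lower (37.5%, against 14.5% of all tested genes), with a median log2 fold change of -0.55. Irf8, a factor best known from myeloid and dendritic cells, fell from 19.2, 22.1 and 19.8 CPM in WT to 6.91, 3.56 and 4.11 CPM in KO, or from 20.4 ± 1.499 to 4.86 ± 1.80 (SD, n = 3; log2 -2.07 ± 0.29, adjusted p = 0.00147). Irf9, the DNA-binding subunit of the complex with STAT2, fell from 23.6, 26.3 and 27.4 to 4.43, 9.67 and 6.94 CPM (log2 -1.87 ± 0.33, adjusted p = 0.00247). Irf1, which binds ISRE-type elements and is itself induced by interferon-gamma, fell from 102, 95.2 and 122 to 38.8, 53.5 and 50.2 CPM (log2 -1.16 ± 0.18, adjusted p = 0.00196). For each of these genes every WT library lies above every KO library, and the call held in all alternative analyses. Stat2, the partner of IRF9, stood at 37.3, 41.5 and 44.0 CPM in WT and 47.1, 35.5 and 37.5 CPM in KO (log2 -0.03 ± 0.14, adjusted p = 0.888), and its genotypes overlap. Irf3, the latent factor that sensors activate, had a log2 fold change of -0.12 (adjusted p = 0.487). Irf7, the inducible factor that amplifies type I interferon, had -0.57 (0.271), Irf5 had -0.53 (0.0973) and Irf2, a repressor at ISRE elements, had 0.27 (0.554). Irf7 was called lower without KO replicate 1 (log2 -0.94, adjusted p = 0.029). The KO values of Irf5 all lie below its WT values, without passing the test. Part of Irf5 (14.1% of its exon bases) is shared with Tnpo3.

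Of the 7 sensor and adaptor genes, 3 were lower (42.9%, against 14.5% of all tested genes) and 4 were not called. Their median log2 fold change was -0.60. Dhx58, which encodes LGP2, a regulator of RIG-I and MDA5, fell from 5.34, 5.69 and 5.44 CPM in WT to 1.16, 1.72 and 1.82 CPM in KO (log2 -1.80 ± 0.20, adjusted p = 0.00222). Zbp1, a sensor of Z-form nucleic acids, rested on few reads. WT libraries counted 29, 23 and 22, and KO libraries 2, 6 and 11 (log2 -2.03 ± 0.41, adjusted p = 0.0143). Mb21d1, the gene of the DNA sensor cGAS, fell from 42.4, 43.6 and 43.3 to 17.9, 31.8 and 30.4 CPM (log2 -0.69 ± 0.27, adjusted p = 0.0475). KO replicate 1 had the lowest value for all 3 of these genes. The Mb21d1 call was lost without any 1 WT replicate or KO replicate 3 (adjusted p up to 0.134) and at a minimum of 1 CPM in 3 libraries, and the Zbp1 call without WT replicate 1 or 2 (adjusted p up to 0.059). Mavs, the adaptor of the RNA sensors, stood at 33.7, 35.0 and 33.3 CPM in WT and 34.3, 32.3 and 32.1 CPM in KO (log2 -0.04 ± 0.04, adjusted p = 0.788). Ddx58 (RIG-I) had a log2 fold change of -0.13 (adjusted p = 0.475), Ifih1 (MDA5) -0.60 (0.111) and Tmem173 (STING) -0.48 (0.627). The KO values of Ifih1 all lie below its WT values, without passing the test. Tmem173 spread widely in KO, from 0.3005 CPM in replicate 1 to 3.21 CPM in replicate 3.

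The ISG15 and PARP group was lower almost throughout, with 6 of 7 genes called (85.7%, against 14.5% lower of all tested genes). Its median log2 fold change was -1.90. Isg15, a ubiquitin-like protein joined to other proteins after interferon exposure, fell from 10.3, 8.71 and 7.80 CPM in WT to 0.488, 2.08 and 2.45 CPM in KO, a 5.27-fold difference (log2 -2.40 ± 0.70, adjusted p = 0.0105). Usp18, which removes ISG15 and dampens IFNAR2 signalling, fell from 3.65, 3.58 and 3.61 to 1.31, 0.623 and 0.354 CPM (log2 -2.27 ± 0.50, adjusted p = 0.00883). Its lowest KO library was replicate 3, unlike that of Isg15, and leaving out KO replicate 1 gave a log2 fold change of -2.89. Parp14, an ADP-ribosyltransferase, fell from 7.29, 9.24 and 9.35 to 0.939, 1.81 and 1.33 CPM (log2 -2.65 ± 0.29, adjusted p = 0.000792). Dtx3l, a ubiquitin ligase that works in a complex with PARP9, fell from 8.45, 9.15 and 10.2 to 2.37, 2.58 and 2.48 CPM (log2 -1.90 ± 0.09, adjusted p = 0.000588). Parp9 fell from 17.9, 17.7 and 12.7 to 3.68, 6.23 and 4.87 CPM (log2 -1.71 ± 0.27, adjusted p = 0.00253). Parp14, Dtx3l and Parp9 lie next to each other on chromosome 16 (GRCm38, 35832874 to 35972605). Parp9 and Dtx3l lie on opposite strands and share 458 exon bases, 9.4% and 8.0% of their exons, so part of the reads of this pair cannot be told apart. Trim25, the ubiquitin ligase that activates RIG-I, fell less, from 61.3, 62.6 and 71.0 to 40.3, 40.1 and 39.2 CPM (log2 -0.71 ± 0.07, adjusted p = 0.00323). Trim21, a cytosolic antibody receptor, stood at 6.29, 5.88 and 4.90 in WT and 3.42, 4.12 and 2.86 CPM in KO (log2 -0.71 ± 0.18, adjusted p = 0.0562). It did not pass the test although its genotypes do not overlap, and it was called in 5 of the alternatives.

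**Figure D2:**
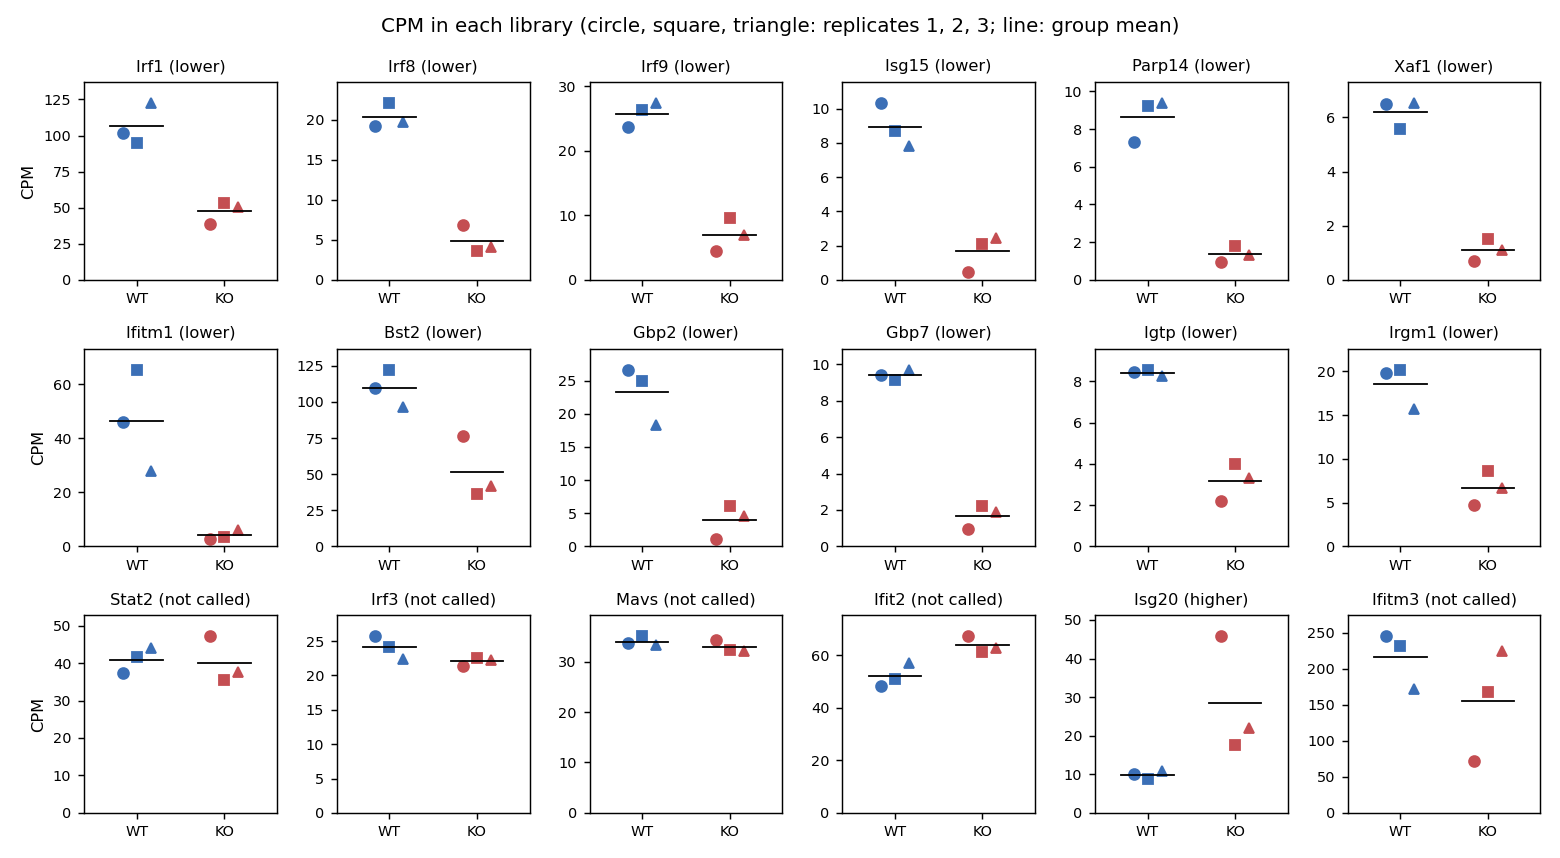
CPM (vertical axis, from 0, own scale in each panel) of 18 genes in the 3 WT and 3 KO libraries, with circles, squares and triangles for replicates 1, 2 and 3 and a line at the group mean. The first 12 panels are genes lower in KO whose points do not overlap, such as Irf9 at 23.6 to 27.4 against 4.43 to 9.67, and the last 6 show overlapping groups, except for Ifit2 and Isg20, where KO lies above.

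Of the 20 antiviral effectors 15 were tested, of which 6 were lower (40.0%), 1 was higher (6.67%) and 8 were not called. Of all tested genes 14.5% were lower and 13.8% higher. The median log2 fold change of the 15 effectors was -0.62. The OAS family is named for enzymes that, on sensing viral RNA, make short adenylate chains, which activate RNase L. The 4 tested genes of the family were all lower. Oas1b among them is annotated as a polymorphic pseudogene, so it may make no such enzyme. Oas1b fell from 5.37, 5.88 and 7.36 CPM in WT to 1.62, 1.51 and 0.979 CPM in KO (log2 -2.18 ± 0.25, adjusted p = 0.00157). Oas3 was counted 16, 29 and 26 times in the WT libraries but 1, 0 and 3 times in the KO libraries (log2 -4.10 ± 0.43, adjusted p = 0.00404). Oas1a was counted 26, 14 and 13 times against 1, 0 and 2, a ratio of scaled counts of 18.4 with a 95% interval for counting error of 5.96 to 92.1 (log2 -4.04 ± 0.38, adjusted p = 0.00471). The sizes of these last falls rest on a few KO reads, and without KO replicate 3 they were -5.202 for Oas3 and -4.77 for Oas1a. Of 50-base stretches of Oas1a, 57.6% also occur in another gene, chiefly Oas1g, so its reads may have been lost or assigned elsewhere. Oasl2, an OAS-like gene, fell from 3.96, 3.36 and 3.55 to 0.150, 1.45 and 1.20 CPM (log2 -1.93 ± 0.90, adjusted p = 0.0479), and this call was lost without any 1 WT replicate or KO replicate 3 (adjusted p up to 0.133). Oas2 had 3 counts in WT and 0 in KO, and Oasl1 had 3, 1 and 7 in WT and 0, 1 and 20 in KO.

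Of the IFIT genes, whose proteins bind viral RNA ends, Ifit1, Ifit2 and Ifit3 were tested and not called, and the difference from the OAS genes was not tested. Ifit2 stood at 48.2, 50.8 and 57.0 CPM in WT and 67.1, 61.3 and 62.7 CPM in KO (log2 0.29 ± 0.08, adjusted p = 0.09). Its KO libraries all lie above its WT libraries, without passing the test. Ifit1 stood at 1.73, 1.35 and 1.32 CPM in WT and 0.488, 1.04 and 1.31 CPM in KO (log2 -0.62, adjusted p = 0.268). Its KO libraries all lie below its WT libraries, also without passing the test. Its promoter is the one shown above with ISRE cores at -104 and -85. Ifit3 had a log2 fold change of 0.24 (adjusted p = 0.551), and its near copy Ifit3b was counted 9, 5 and 11 times in the WT libraries against 9, 18 and 12 times in the KO libraries. Of 50-base stretches, 51.2% of Ifit3 and 45.0% of Ifit3b occur in another gene, so how reads were divided between the pair is uncertain.

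Of the other effectors, Xaf1, which encodes a partner of the apoptosis inhibitor XIAP, fell from 6.51, 5.56 and 6.52 CPM in WT to 0.714, 1.51 and 1.09 CPM in KO (log2 -2.47 ± 0.30, adjusted p = 0.00136). Ifi27 fell from 62.7, 62.1 and 52.9 to 30.6, 38.9 and 48.0 CPM (log2 -0.60 ± 0.20, adjusted p = 0.0406), and its call was lost without any 1 WT replicate or KO replicate 2 (adjusted p up to 0.137). The Ifi27 genotypes do not overlap. Isg20 ran the other way, rising from 10.1, 8.80 and 10.9 to 45.7, 17.6 and 22.0 CPM (log2 1.52 ± 0.42, adjusted p = 0.016). KO replicate 1 held the highest Isg20 value, and without it the log2 fold change was 1.00 (adjusted p = 0.00136). Without any 1 WT replicate the Isg20 call was lost (adjusted p up to 0.0696). Eif2ak2, the gene of the RNA-activated kinase PKR, stood at 91.0, 96.2 and 106 CPM in WT and 64.3, 96.8 and 85.9 CPM in KO (log2 -0.25 ± 0.19, adjusted p = 0.29). Rtp4 (log2 -1.24, adjusted p = 0.0641), Mx2 (-0.70, 0.116), Ifi35 (-0.38, 0.107) and Ifi44 (0.62, 0.347) were not called, although Rtp4 was called lower in 5 of the alternatives and Ifi35 in 2. Mx1, a dynamin-like restriction factor of influenza viruses, was counted 4, 3 and 3 times in the WT libraries against 1, 7 and 2 in the KO libraries, and Rsad2 (viperin) had 2, 2 and 10 in WT and 1, 0 and 1 in KO.

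Of the 4 membrane factors, Ifitm1 and Bst2 were lower and Ifitm2 and Ifitm3 were not called. The IFITM proteins block virus entry at cellular membranes, and Ifitm1, Ifitm2 and Ifitm3 lie together on chromosome 7 (GRCm38, 140954837 to 141010770). Ifitm1 fell from 46.0, 65.3 and 27.9 CPM in WT to 2.59, 3.41 and 6.09 CPM in KO, an 11.4-fold difference (log2 -3.51 ± 0.50, adjusted p = 0.00106). Ifitm2 stood at 205, 184 and 163 CPM in WT and 137, 213 and 278 CPM in KO (log2 0.19 ± 0.31, adjusted p = 0.597). Ifitm3 had a log2 fold change of -0.48 ± 0.51 (adjusted p = 0.357), with 72.1 CPM in KO replicate 1 and 224 in KO replicate 3. Without KO replicate 1, Ifitm2 was called higher (log2 0.42, adjusted p = 0.0437). Ifitm2 shares 40.9% of its exon bases with the gene model Gm45717 on the same strand, and 48.5% of its 50-base stretches occur in another gene. Bst2, the gene of tetherin, which holds budding virus at the cell surface, fell from 110, 122 and 96.5 to 76.7, 36.4 and 41.6 CPM (log2 -1.09 ± 0.34, adjusted p = 0.023). KO replicate 1 had the highest Bst2 value of the KO libraries, and the call was lost without any 1 WT replicate or KO replicate 3 (adjusted p up to 0.0823).

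All 5 interferon-gamma-inducible GTPases were lower, against 14.5% of all tested genes, with a median log2 fold change of -2.08. These proteins gather on the vacuoles of intracellular pathogens. Gbp2 fell from 26.6, 24.9 and 18.3 CPM in WT to 1.05, 6.11 and 4.57 CPM in KO (log2 -2.56 ± 0.78, adjusted p = 0.0105). Gbp7 fell from 9.43, 9.15 and 9.69 to 0.977, 2.22 and 1.88 CPM (log2 -2.46 ± 0.35, adjusted p = 0.00136). Gbp3 fell from 14.1, 13.6 and 11.3 to 0.939, 4.74 and 3.45 CPM (log2 -2.08 ± 0.70, adjusted p = 0.0175), a call lost without any 1 WT replicate (adjusted p up to 0.0646). These guanylate-binding protein genes lie together on chromosome 3 (GRCm38, 142530342 to 142638008). Of the immunity-related GTPases, which help to clear such vacuoles, Irgm1 fell from 19.8, 20.1 and 15.7 to 4.69, 8.63 and 6.64 CPM (log2 -1.48 ± 0.28, adjusted p = 0.00446). Igtp fell from 8.45, 8.55 and 8.24 to 2.22, 4.003 and 3.29 CPM (log2 -1.40 ± 0.25, adjusted p = 0.006). In all 5 genes KO replicate 1 was the lowest library and the genotypes do not overlap.

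The size of the fall differed between the KO libraries. As the median difference in log2 CPM from the WT mean, the 53 tested genes stood at -1.05 in KO replicate 1, -0.59 in replicate 2 and -0.79 in replicate 3. All tested genes stood at -0.02 to 0.00 in the same libraries. The GTPases varied the most, at -3.19, -1.44 and -1.89, while the ISG15 group stood at -1.94, -1.82 and -1.83. The STAT2 and IRF group was lowest in replicate 3, at -0.33, -0.44 and -0.96. KO replicate 1 was the lowest KO library for 19 of the 27 lower genes (70.4%), against 1205 of 2181 lower genes overall (55.2%). Without that replicate, 31 genes were lower (57.4% of those tested, against 22.4% of all genes tested in that fit) and 2 were higher.

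**Figure D3:**
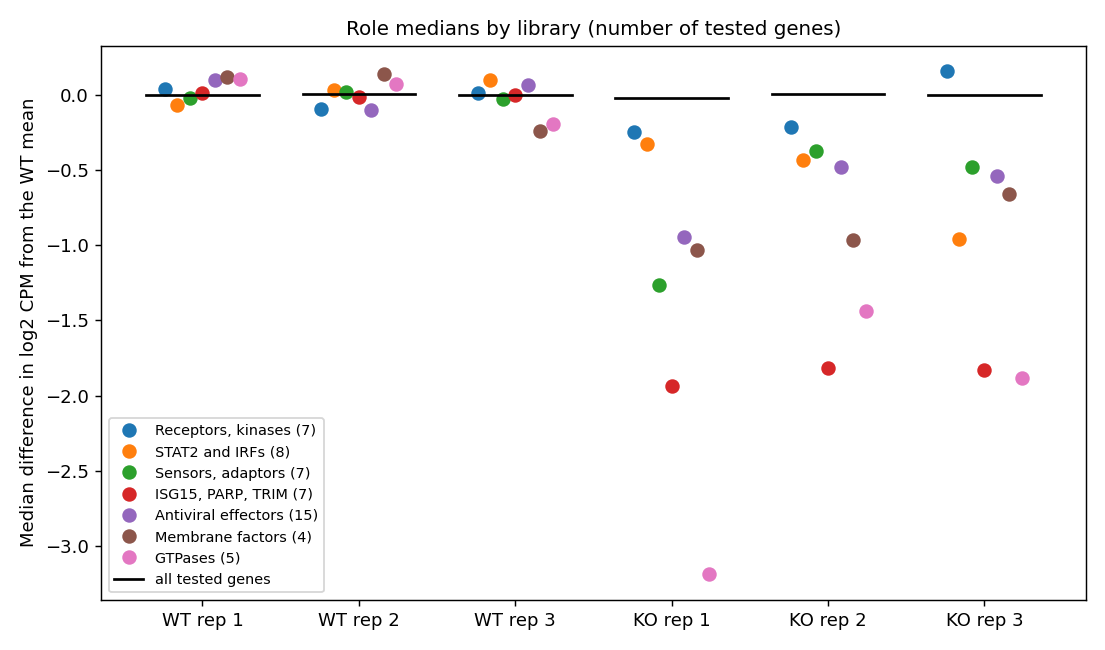
Median difference in log2 CPM from the WT mean (vertical axis) for the tested genes of each role in each of the 6 libraries, with black lines for all tested genes. WT medians scatter about 0, the ISG15 group lies at -1.94 to -1.82 in every KO library, and the GTPases lie at -3.19 in KO replicate 1 against -1.44 and -1.89 in the other two.

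Levels can be compared between genes per length of exon. The median over the 58 genes was 3.34 CPM per kilobase in WT and 1.22 in KO. In WT, Ifitm3 was highest at 319 CPM per kilobase, followed by Ifitm2 at 281, Bst2 at 121, Ifitm1 at 42.4, Ifi27 at 40.4, Jak1 at 33.5 and Irf1 at 26.7. In KO, Ifitm2 led at 319, followed by Ifitm3 at 228, Bst2 at 57.1 and Jak1 at 40.8. Ifitm2 and Ifitm3 overlap between libraries in both genotypes, but both were measured in each library. Per kilobase, Ifitm3 lay above Ifitm2 within every WT library, narrowly in replicate 3, and below Ifitm2 within every KO library. This change of order was not tested, and the level of Ifitm2 is uncertain because it shares sequence with other genes. Ifitm1 moved from rank 4 in WT to rank 23 in KO, at 3.68 CPM per kilobase.

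**Figure D4:**
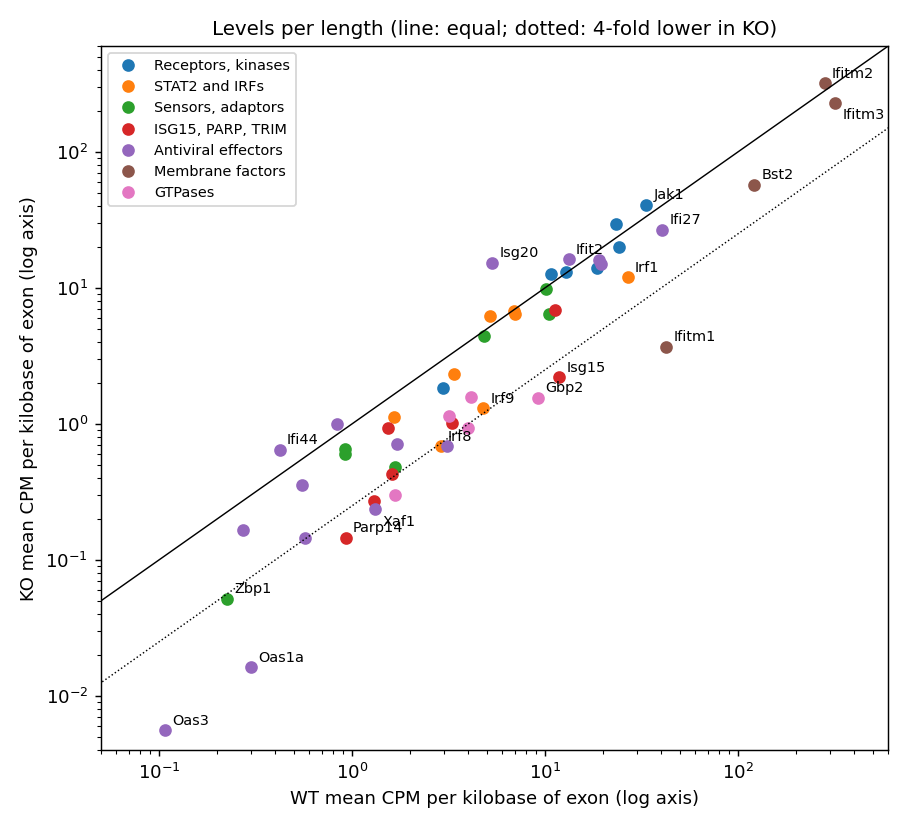
Mean level in KO (vertical log axis) against WT (horizontal log axis), both in CPM per kilobase of exon, for the 53 tested genes coloured by role. The solid line marks equal levels and the dotted line a 4-fold lower level in KO, and Ifitm1 at 42.4 against 3.68 lies far below the Ifitm2 and Ifitm3 points.

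Of 30 further receptors, transducers, sensors and brakes, 27 were tested, with a median log2 fold change of -0.31. Of these 27, 10 (37.0%) were lower and 5 (18.5%) higher, against 14.5% and 13.8% of all tested genes. The lower genes with the smallest p were Nlrx1, a mitochondrial NOD-like protein (log2 -4.02 ± 0.37, adjusted p = 0.000735), the interferon-lambda receptor chain Ifnlr1 (-1.24 ± 0.13, 0.0047) and the RNA editing enzyme Adar (-0.61 ± 0.07, 0.00851). Aim2, a DNA sensor of the inflammasome, was higher, at 0.346, 0.157 and 0.101 CPM in WT and 10.9, 6.37 and 5.44 CPM in KO (log2 5.19 ± 0.49, adjusted p = 0.000456). Tank (0.88 ± 0.08, 0.00132), an adaptor of the kinase TBK1, and Socs3 (1.05 ± 0.27, 0.0123), a feedback inhibitor of cytokine receptors, were also higher. The other two higher genes of that list, named here to complete the count, were Stat3 (0.57 ± 0.19, 0.0385) and Ticam1 (0.54 ± 0.14, 0.0337). Of 74 further interferon-stimulated genes, 55 were tested, with a median log2 fold change of -0.56. Of these 55, 24 (43.6%) were lower and 4 (7.27%) higher, against the same 14.5% and 13.8% of all tested genes. The lower ones were led by guanylate-binding protein genes. Gbp9 stood at 22.7, 25.0 and 20.1 CPM in WT and 0.451, 1.13 and 1.25 CPM in KO (log2 -4.55 ± 0.44, adjusted p = 0.000187), followed by Gbp4 (-4.04 ± 0.26, 0.000208) and Gbp6 (-3.74 ± 0.32, 0.000289). The higher ones were Plscr2 (1.03 ± 0.12, 0.00239), Ifi203 (1.05 ± 0.30, 0.0262), Ifit1bl1 (1.55 ± 0.35, 0.0292) and, to complete the count, Casp4 (0.64 ± 0.23, 0.0397).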

How the data were processed

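The deposited files hold counts of reads per Ensembl mouse gene as the authors made them, raw and 1 library per file. TopHat2 2.1.0, HTSeq, DESeq2 and GRCm38.p4 are named in the submitters' processing notes. Neither the annotation release nor the strand setting is given in the sources used here, and the TruSeq RNA v2 kit named in the labels' protocols does not mark strand. Thus 15 of the 58 genes share exon bases with a gene on the other strand, whose reads cannot be told apart.

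Of 46603 identifiers, 46005 matched GENCODE GRCm38, and 1 member (Mb21d1) was matched by a RefSeq synonym. Counts were tested in R 4.3.3 with edgeR 4.0.16: filterByExpr, TMM scaling, and a two-sided quasi-likelihood F test of KO against WT, 3 libraries each, with Benjamini-Hochberg adjustment over all 15009 tested genes and a threshold of 0.05. Log2 fold changes are KO over WT. Each ± after one is the standard error of the difference in mean log2 CPM (prior count 2). Differences and counts beside "not called" do not show equal levels. On simulated counts for 14585 genes, 50.5% of 2-fold and 96.0% of 4-fold changes were called. In that simulation 95 genes were changed 2-fold and 99 genes 4-fold, far fewer than the 4255 called here. The adjusted threshold depends on this share, so these rates may not hold in the real data. Intervals and the limit of 3 counts cover counting error only.

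Alternatives were other scalings, DESeq2 1.42.0, limma 3.58.1 voom, other filters, a replicate block and leaving out each library. The text names every member, gives library values for each called member and for the most abundant not-called member of each role, and up to 3 genes in each direction from the other lists. The members and lists were chosen with earlier results of these data known. One gene of the other lists is not reported here.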

Additional observations from a re-analysis of the deposited data

How the results depend on the processing

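Of the single-gene fold changes over all alternatives, 726 kept direction and side of the threshold, 36 lost the call, 17 gained one and 12 changed sign. The sign changed only in members that were not called in either fit. Ifnar1 (0.0351) became -0.0172 with upper-quartile scaling and -0.157 with library totals, and ran from -0.0801 to 0.209 on leaving out each library. Ifitm2 (0.187) became -0.000331 with library totals and ran from -0.0684 to 0.418. The leave-one-out values also crossed 0 for Stat2 (-0.164 to 0.0510), Irf2 (-0.202 to 0.462) and Tmem173 (-1.19 to 0.0107). The count of lower members (27) was 27 with DESeq2's size factors in edgeR and 28 with upper-quartile scaling. It was 29 with DESeq2, 29 with limma-voom and 28 without a filter. In these fits 14.3%, 16.0%, 17.3%, 15.2% and 8.72% of all genes were lower, in that order. At a minimum of 1 CPM, 23 of the 49 tested members were lower (46.9%, against 14.8% of all genes). There Mb21d1 lost the call, and Zbp1, Mx2, Oas1a and Oas3 were not tested. Leaving out each library gave 19 to 31 lower members. The 19, without WT replicate 2, were 35.2% of tested members, against 8.41% of all genes. The 31, without KO replicate 1, were 57.4%, against 22.4%. Higher members numbered 0 to 2 in those leave-one-out fits, all called genes 2298 to 6537 (4255 in the full fit), other pathway genes 3 to 13 higher (9) and 24 to 44 lower (34), and the members' median log2 fold change -0.777 to -0.677. Scaling by library totals alone shifted the median of all genes to -0.193. It gave a member median of -0.888, 32 lower members (60.4%, against 22.3% of all genes in that fit) and 5 higher other pathway genes. The samples share a replicate number but the labels do not pair them, and same-numbered deviations correlated at -0.101, 0.046 and -0.148. With the replicate number as a block, 22 members were lower (41.5%, against 10.7% of all genes in that fit) and 1 higher, and Ifngr2, Tyk2, Mb21d1, Ifi27 and Oasl2 lost the call. Depth limits Oas1a, Oas3 and Zbp1, which rest on few KO reads, and the 5 members that could not be tested.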

Other observations

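The guanylate-binding protein genes, counted over members and the further list together, were lower on chromosome 3 and chromosome 5. Of 10 listed, 9 were tested, 8 were lower, 0 were higher, and the log2 fold changes ran from -4.79 to -1.16 with a median of -3.55. Gbp8 was counted 24, 51 and 68 times in the WT libraries but 3, 0 and 2 times in the KO libraries (log2 -4.79 ± 0.62, edgeR quasi-likelihood adjusted p = 0.00358), and Gbp10 92, 70 and 53 times against 2, 10 and 7 (-3.55 ± 0.45, 0.00149). Gbp5, counted 87, 59 and 40 times against 18, 12 and 59, was not called (-1.16 ± 0.64, 0.154), with KO replicate 3 inside the WT range. The annotated bodies of Gbp4, Gbp8 and Gbp9 overlap on chromosome 5, so how reads were divided among them is uncertain. Over both sets of lists, the OAS genes had 5 of 5 tested genes lower, and the IFIT genes had 0 of 5 lower and 1 higher, with a median of 0.24. Of all tested genes, 14.5% were lower and 13.8% higher. The families were grouped after their values were seen.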
